A study of Mus musculus with 26 samples.

Results

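The SoxE transcription factors Sox8, Sox9 and Sox10 and the SoxD factors Sox5, Sox6 and Sox13 were followed in mouse neural stem cells that carried MYB constructs. The 6 genes were taken through the probe sets whose annotation names that gene alone, which gave 76 probe sets and 6 of the 23152 genes on the array that could be tested. All 6 were measured and none was removed by a filter, since no filter on dim signal was applied.

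Sox proteins bind DNA through an HMG box. The SoxE factors act as activators in glia: Sox9 is needed for the switch from neuron to glia production, Sox10 for the maturation of oligodendrocytes, and Sox8 overlaps with both in its function. The SoxD factors carry no activation domain of their own and modify what SoxE factors do, and Sox5 and Sox6 are known to hold back oligodendrocyte maturation. MYB is a DNA-binding activator of progenitor cells, and its fusion to the RNA-binding protein QKI is known from angiocentric glioma.

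The cells were neural stem cells isolated from wild-type C57BL6 embryos at E14.5, and total RNA was read on Affymetrix arrays. In the pool set, lentivirus brought in eGFP, MYBtr, MYBQKI5, MYBQKI6 or QKItr, each in pools 1, 2 and 3, with 2 eGFP arrays per pool averaged to 1 value, so every construct had 3 values. In the suppression set, all cells carried MYBQKI6, with Qk suppressed on 5 arrays and LacZ, the control, on 3. The labels number the Qk arrays 5_2, 6_1, 6_3, 9_1 and 9_3, and do not say what the first number stands for. Some Qk arrays share a second number, so the 5 may not be independent samples of 1 condition. The labels do not spell out what tr stands for, which Qk reagent was used, or whether pools came from separate embryos or cultures, so the p-values speak only for how far these samples vary.

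Values are deposited log2 signals, and a gene's level is the mean over its probe sets. A gene was called where the limma adjusted p, by the Benjamini-Hochberg method over all 23152 genes, was under 0.05. The constructs could be seen in the arrays: Myb signal was higher than with eGFP by 2.62 with MYBtr, 2.37 with MYBQKI5 and 2.84 with MYBQKI6 (limma adjusted p = 0.00026, 0.0019 and 0.00035), and by 0.24 with QKItr, which was not called. Array medians were 5.61 to 5.74 for the pools and 5.39 to 5.51 for the suppression arrays, and no value was compared across the sets. The stem cell marker Sox2 stood at 10.6 with eGFP and Vim, an intermediate filament of neural stem cells, at 11.1, where the median gene of an array lay at 4.96 to 5.03. Arrays of pooled cells cannot tell fewer cells of a type from less RNA per cell.

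Of the 6 genes 4 matched the table of RefSeq start windows (GRCm38.p6) used here. The window around the start, 250 bases before it to 50 bases after it, is shown for these 4, because MYB binds a short core, AACNG, and Sox8 and Sox6 are set beside genes that were not called. Matches of that core on either strand are in capitals, and all 4 genes lie on the minus strand. Sox8 has its start window at chr17:25570637-25570936, Sox6 at chr7:116038695-116038994 for the first of its 6 listed starts, Sox5 at chr6:143947057-143947356 and Sox13 at chr1:133424163-133424462.
Sox8: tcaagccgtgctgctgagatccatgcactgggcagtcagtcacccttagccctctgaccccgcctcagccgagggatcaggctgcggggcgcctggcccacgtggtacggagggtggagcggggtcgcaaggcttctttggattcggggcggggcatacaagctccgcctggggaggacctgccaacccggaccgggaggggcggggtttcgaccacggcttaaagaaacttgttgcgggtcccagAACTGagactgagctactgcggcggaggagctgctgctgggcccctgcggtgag
Sox6: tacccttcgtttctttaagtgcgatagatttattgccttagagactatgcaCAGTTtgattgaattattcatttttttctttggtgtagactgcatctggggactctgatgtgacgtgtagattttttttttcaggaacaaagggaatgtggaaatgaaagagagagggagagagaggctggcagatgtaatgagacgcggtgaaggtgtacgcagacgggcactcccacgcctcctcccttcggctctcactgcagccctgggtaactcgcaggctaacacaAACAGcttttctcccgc
Sox5: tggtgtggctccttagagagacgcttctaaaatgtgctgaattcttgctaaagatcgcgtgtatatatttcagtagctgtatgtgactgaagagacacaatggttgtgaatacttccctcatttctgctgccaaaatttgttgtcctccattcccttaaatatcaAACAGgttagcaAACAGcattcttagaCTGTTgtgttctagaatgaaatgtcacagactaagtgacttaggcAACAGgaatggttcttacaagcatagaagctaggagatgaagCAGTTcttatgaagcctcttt
Sox13: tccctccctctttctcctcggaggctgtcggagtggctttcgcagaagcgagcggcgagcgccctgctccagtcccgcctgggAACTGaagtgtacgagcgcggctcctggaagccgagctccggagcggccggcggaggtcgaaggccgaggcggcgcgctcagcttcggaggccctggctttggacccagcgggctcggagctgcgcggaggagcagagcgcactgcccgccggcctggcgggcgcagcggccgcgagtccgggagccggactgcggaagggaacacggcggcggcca
The Sox8 window held 1 match, at bases 247 to 251, Sox6 held 2, Sox5 held 5 and Sox13 held 1. The core is short, and 80.3% of 32851 windows of this length held it. The Sox motif ACAANG, searched the same way, was in 41.2% of all windows, once in the windows of Sox5 and of the Sox6 start shown, and not in those of Sox8 and Sox13. A match of letters is a description of the window and not a binding site.

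Sox8 fell with the MYB constructs, and Sox6 fell with them by a smaller step. With the 3 MYB constructs as 1 class against eGFP, Sox8 was lower by 1.73 on the log2 scale (3.32-fold; SE 0.32) and Sox6 by 0.54 (1.45-fold; SE 0.13), and both were called (limma adjusted p = 0.012 and 0.044). Sox9, Sox10, Sox5 and Sox13 were not called in this comparison, although all 6 differences had a negative sign. Among all genes tested 2.00% were called in it. The median difference of the 6 genes was -0.26, beside -0.0066 over all genes.

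**Figure D1:**
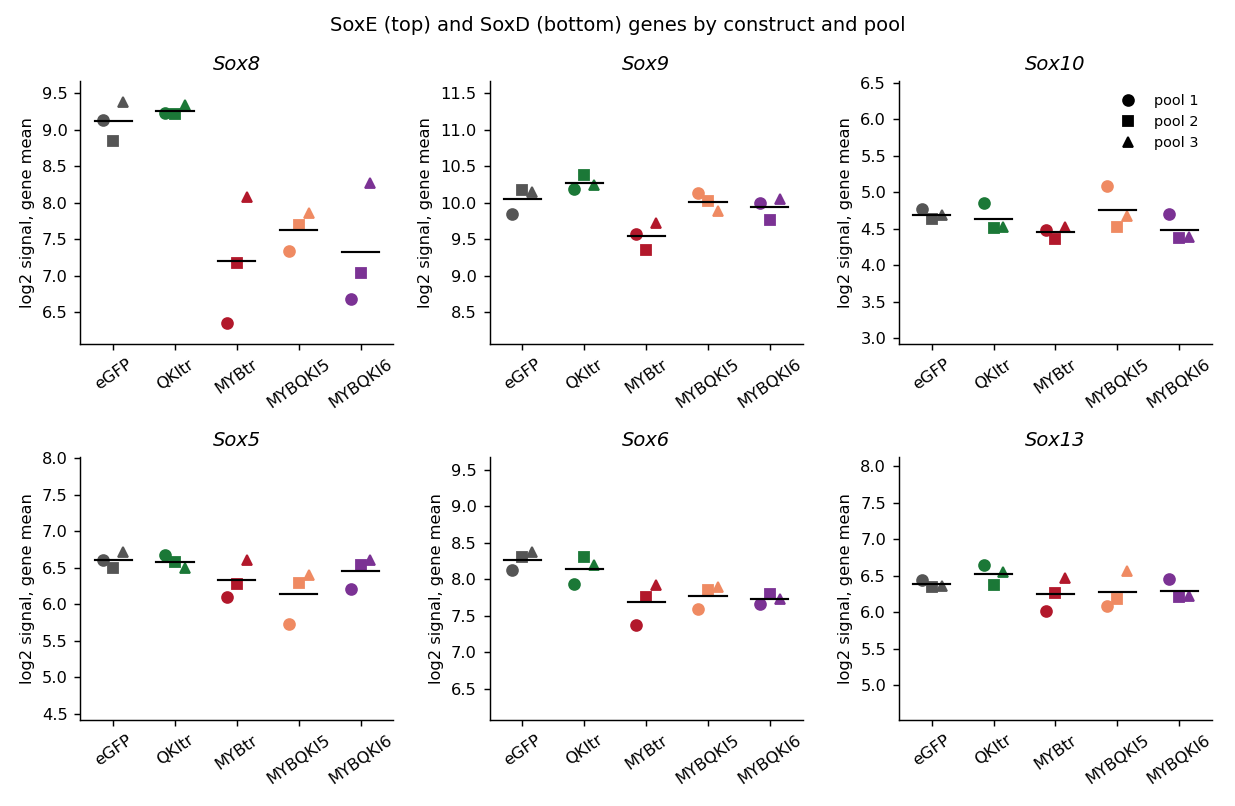
Each panel shows the log2 signal (gene mean over probe sets) of 1 gene for the 5 constructs, with a point per pool (circle pool 1, square pool 2, triangle pool 3) and a bar at the group mean; every panel spans the same number of log2 units. The 9 Sox8 values with MYB constructs lie between 6.36 and 8.27, below the 6 values with eGFP and QKItr at 8.85 to 9.37, while for Sox13 each construct overlaps eGFP.

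Sox8 is the SoxE member with the plainest pattern. With eGFP it stood at 9.14, 8.85 and 9.37 in pools 1, 2 and 3, a mean of 9.12 ± 0.26 (SD, n = 3). With QKItr it was 9.23, 9.22 and 9.33, a mean of 9.26 ± 0.06 (SD, n = 3). These control levels overlapped.

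With MYBtr Sox8 was 6.36, 7.17 and 8.08, with MYBQKI5 7.34, 7.69 and 7.86, and with MYBQKI6 6.69, 7.04 and 8.27. Each of the 9 values lay under each of the 6 values with eGFP or QKItr, with a gap of 0.58 between the nearest. Of all genes tested, 1.38% showed 9 MYB values under the 6 others. In each MYB group pool 1 was lowest and pool 3 highest, and the SD was 0.86 with MYBtr, 0.27 with MYBQKI5 and 0.83 with MYBQKI6.

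Against eGFP, Sox8 was lower by 1.91 with MYBtr (3.77-fold; 95% confidence interval of the difference -2.77 to -1.06), and this was called (limma adjusted p = 0.030), where 1.37% of all genes were called. It was lower by 1.79 with MYBQKI6 (3.46-fold, limma adjusted p = 0.058) and by 1.49 with MYBQKI5 (2.81-fold, limma adjusted p = 0.18), which were not called; 0.765% and 0.199% of all genes were. Within pools, the MYBtr difference was -2.78, -1.68 and -1.29, that of MYBQKI5 -1.80, -1.16 and -1.52, and that of MYBQKI6 -2.45, -1.81 and -1.11. The direction was the same in all 9 pool comparisons. In a fit with the pool as a block, all 3 constructs were called for Sox8 (limma adjusted p = 0.0011 with MYBtr, 0.010 with MYBQKI5 and 0.0021 with MYBQKI6).

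The call with MYBtr was lost when eGFP pool 1, 2 or 3 or MYBtr pool 1 or 2 was left out (limma adjusted p = 0.11, 0.086, 0.11, 0.13 and 0.14). Over the 6 fits that each left out 1 sample the difference ranged from -2.35 to -1.49. These fits had no pool block, and leaving out samples was not tried with it. With only the groups of the comparison in the fit the adjusted p was 0.11. With MYBQKI6 Sox8 became called when MYBQKI6 pool 3 was left out (limma adjusted p = 0.0094). For the 3 constructs together, the call was lost without eGFP pool 1, 2 or 3 (limma adjusted p = 0.072, 0.053 and 0.082) and held without any other sample.

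The comparison with QKItr, the construct without MYB, rests on other control arrays than eGFP. It uses the same MYB arrays and the same fit, so it is not separate evidence. Sox8 was lower by 1.87 with the 3 MYB constructs (3.66-fold; SE 0.32; limma adjusted p = 0.0066), and 2.95% of all genes were called. This call held in each of the 12 fits that left out 1 sample, with adjusted p up to 0.045, and in each of 12 other processing settings, with adjusted p up to 0.023. QKItr itself against eGFP gave a difference of 0.14 with an interval of -0.71 to 0.99.

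Sox9, the SoxE factor that starts gliogenesis, was lowest with MYBtr. Its level was 9.57, 9.36 and 9.72 in pools 1 to 3 with MYBtr, and 9.85, 10.18 and 10.15 with eGFP. With MYBQKI5 it was 10.14, 10.03 and 9.88, with MYBQKI6 10.00, 9.76 and 10.06, and with QKItr 10.19, 10.38 and 10.25. The 3 MYBtr values lay under all 12 others, the nearest of which was 9.76, close to the highest MYBtr value of 9.72. The share of all genes with this pattern was not counted.

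With MYBtr the difference of Sox9 from eGFP was -0.51 (SE 0.14; 1.42-fold lower; limma adjusted p = 0.12), not called, and lower in each pool. With the pool as a block the adjusted p was 0.041, a call. The differences with MYBQKI5 and MYBQKI6 were -0.04 (95% interval -0.34 to 0.26) and -0.12 (-0.42 to 0.18). The 3 constructs together differed from QKItr by -0.43 (limma adjusted p = 0.061, 0.022 with the block, and 0.042 without MYBtr pool 3).

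The difference between fusions and MYBtr was tested for Sox9 as well. Sox9 was higher with MYBQKI5 than with MYBtr by 0.47 (unadjusted p = 0.0052 in limma) and higher with MYBQKI6 by 0.39 (unadjusted p = 0.015 in limma), with an adjusted p of 1.00 for each. No gene was called in any of the 3 pairs of MYB constructs, that is 0% of all genes in each. At an unadjusted p under 0.05 in limma, MYBQKI5 against MYBtr gave 849 genes, MYBQKI6 against MYBtr gave 604 and MYBQKI6 against MYBQKI5 gave 404, and Sox9 was the only one of the 6 Sox genes, in the first and second of these pairs. So the Sox9 pattern was not told apart between constructs after correction.

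Sox10, which drives the myelin programme, had a low signal. Its level was 4.69 ± 0.07 with eGFP and 4.63 ± 0.19 with QKItr, and the MYB groups gave 4.46 ± 0.09 (MYBtr), 4.76 ± 0.29 (MYBQKI5) and 4.49 ± 0.18 (MYBQKI6; SD, n = 3 each). These means lie under the median gene of the array, and no comparison called it. The 3 MYBtr values, 4.48, 4.36 and 4.52 in pools 1 to 3, lay under the eGFP values of 4.77, 4.63 and 4.68, by 0.24 on average (95% interval of the difference -0.57 to 0.10; limma adjusted p = 0.78, and 0.30 with the block). How many of all genes show such a pattern was not counted. The other constructs overlapped eGFP. The difference of the 3 MYB constructs from eGFP was -0.13 with an interval of -0.40 to 0.15.

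**Figure D2:**
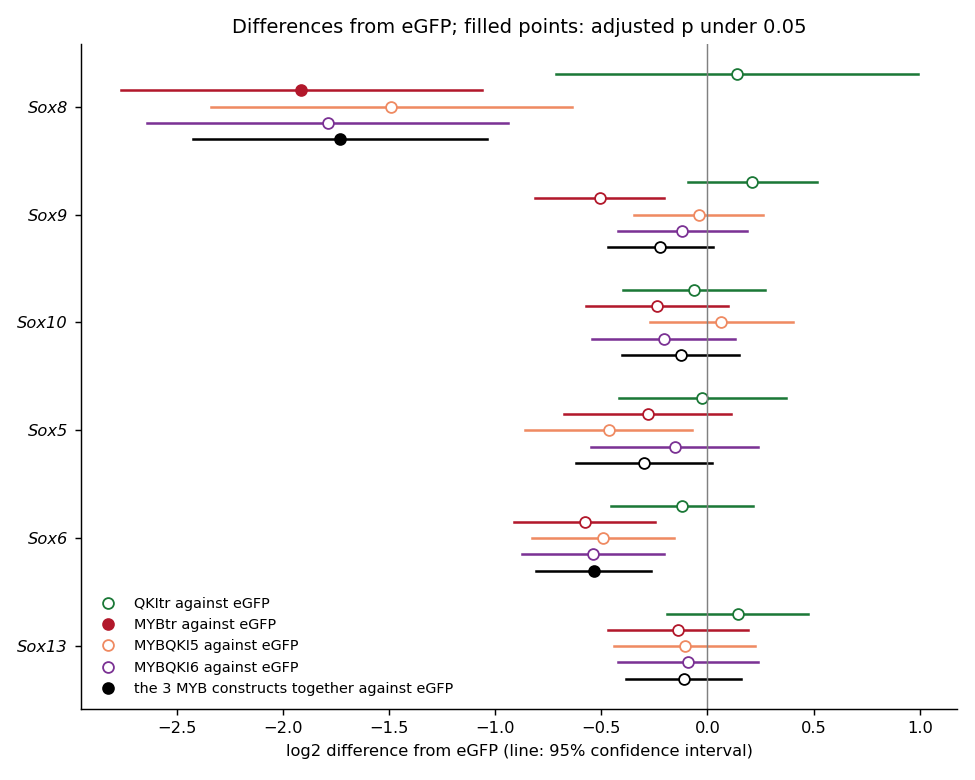
Points give the log2 difference from eGFP of each gene with QKItr, with each MYB construct and with the 3 MYB constructs together, and lines the 95% confidence interval; filled points were called (limma adjusted p under 0.05). Sox8 has the largest differences, -1.49 to -1.91 with the MYB constructs, followed by Sox6 at -0.49 to -0.58.

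Sox6 is the SoxD member that fell. It stood at 8.12, 8.31 and 8.38 in pools 1 to 3 with eGFP and at 7.94, 8.30 and 8.20 with QKItr. With MYBtr it was 7.38, 7.76 and 7.93, with MYBQKI5 7.59, 7.85 and 7.89, and with MYBQKI6 7.66, 7.79 and 7.73. All 9 MYB values lay under the 6 others, but the gap between the nearest, MYBtr in pool 3 and QKItr in pool 1, was 0.014.

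The single-construct differences of Sox6 were close to each other: -0.58 with MYBtr, -0.49 with MYBQKI5 and -0.54 with MYBQKI6 (limma adjusted p = 0.10, 0.34 and 0.18). With the pool as a block each was called (limma adjusted p = 0.0053, 0.025 and 0.010), and without MYBtr pool 3 Sox6 was also called with MYBtr in the fit without the block. Within pools they ranged from -0.74 to -0.45 and had the same sign in all 9. Against QKItr, the 3 constructs together differed by -0.42 (limma adjusted p = 0.11, and 0.0067 with the block).

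In fits without the pool block, the call of Sox6 against eGFP was less steady than that of Sox8. No sample was left out of a fit with the block. The Sox6 call held in 2 of the 12 fits that left out 1 sample, those without MYBtr pool 1 or pool 3. The adjusted p in limma reached 0.24 without eGFP pool 3. The call held in 8 of the 12 other processing settings, among them the pool as a block (limma adjusted p = 0.0017). With the median in place of the mean of its probe sets the adjusted p was 0.21, with the brightest probe set alone 0.51, and with eGFP repeat R1 alone 0.096.

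Sox5, the closest relative of Sox6, had lower means with the MYB constructs but was not called. It was 6.61 ± 0.11 with eGFP and 6.58 ± 0.09 with QKItr, and the MYB groups gave 6.33 ± 0.26 (MYBtr), 6.14 ± 0.36 (MYBQKI5) and 6.45 ± 0.21 (MYBQKI6; SD, n = 3 each). The lowest value was 5.73, with MYBQKI5 in pool 1. The difference of the 3 constructs from eGFP was -0.30 with an interval of -0.62 to 0.02 (limma adjusted p = 0.58). Of the 9 values with MYB constructs, 6 were under all values with eGFP and QKItr. The same count was 6 for Sox13 and 4 each for Sox9 and Sox10, and its share over all genes was not counted.

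Sox13, the third SoxD factor, had the smallest of the 6 differences between the 3 MYB constructs together and eGFP. It was 6.38 ± 0.06 with eGFP and 6.52 ± 0.14 with QKItr, and the MYB groups gave 6.25 ± 0.23 (MYBtr), 6.27 ± 0.25 (MYBQKI5) and 6.29 ± 0.14 (MYBQKI6; SD, n = 3 each), and each overlapped eGFP. That difference was -0.11 (95% interval -0.38 to 0.16; limma adjusted p = 1.00).

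Counted over the 6 genes, 1 was called with MYBtr (Sox8), 0 with MYBQKI5, 0 with MYBQKI6 and 0 with QKItr against eGFP, and 1 with the 3 MYB constructs against QKItr (Sox8). At an unadjusted p under 0.05 in limma the counts were 3, 3, 2 and 0 against eGFP and 3 against QKItr. Over all 23152 genes, the MYB constructs gave 2186, 1575 and 1811 in that order against eGFP, and 3260 together against QKItr. With QKItr no gene of the whole table was called, 0%, and 362 genes had an unadjusted p under 0.05 in limma. Comparisons with eGFP share their control arrays, so their values stand side by side and are not separate evidence.

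Blocking on pool moved these counts to 3 with MYBtr (Sox8, Sox9, Sox6), 2 with MYBQKI5 and 2 with MYBQKI6 (Sox8 and Sox6 in each), 2 with the constructs together and 3 against QKItr (Sox8, Sox9, Sox6). In the same blocked limma fits 5.97%, 2.63%, 4.39%, 7.07% and 10.4% of all genes were called. Sox10, Sox5 and Sox13 were called in neither fit.

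Single probe sets spread the view over each gene. All 7 probe sets of Sox8 were lower with the MYB constructs in all 63 pool comparisons. Probe sets of a gene read the same samples and are not separate observations. The share of all probe sets lower throughout was not counted. The brightest, 17342305, stood at 11.5 with eGFP and 11.7 with QKItr, and at 9.44 with MYBtr, 10.1 with MYBQKI5 and 9.58 with MYBQKI6. The dimmest, 17342301, differed by -1.18 with the constructs together and the other 6 by -2.06 to -1.27, so the change was not carried by 1 probe set.

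Adjusted over all 269751 probe sets, 2 probe sets of Sox8 were called in the 3 MYB constructs against eGFP, 17342300 at -2.03 and 17342303 at -2.06 (limma adjusted p = 0.033 and 0.045), where 0.356% of all were called. Against QKItr 5 of the 7 were called, where 0.744% were. With the pool block 4 probe sets were called with MYBtr alone (0.533% of all), all of Sox8. In the combined comparisons the block gave 8 against eGFP (6 of Sox8 and 2 of Sox6, 1.10% of all) and 10 against QKItr (6 of Sox8 and 4 of Sox6, 2.34% of all).

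**Figure D3:**
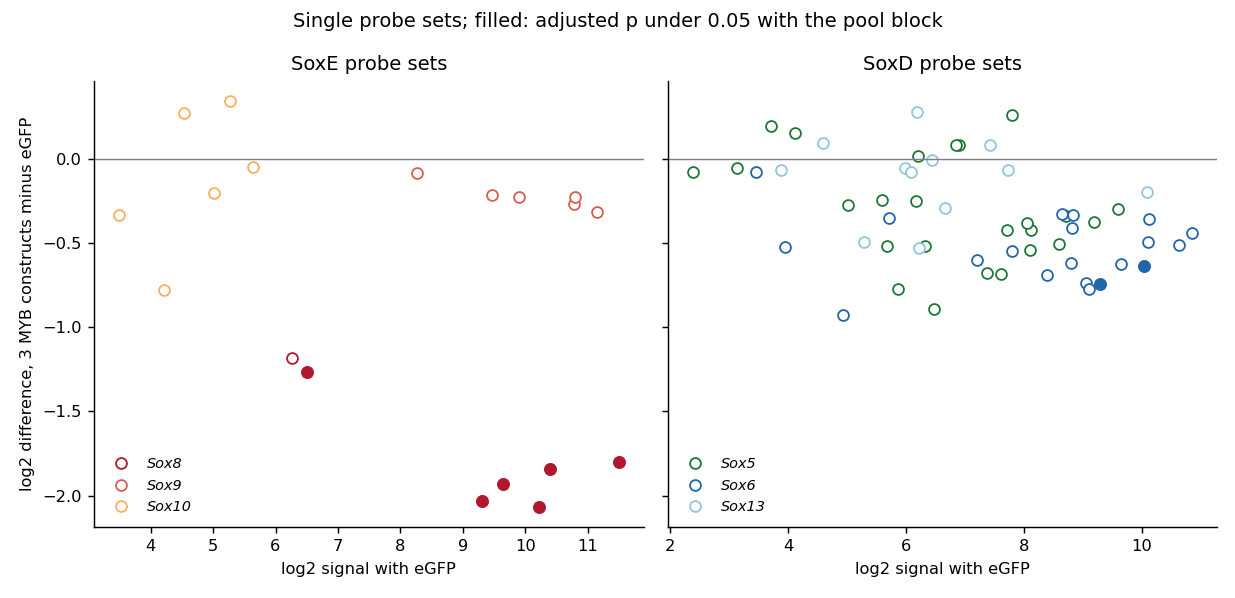
Each point is a probe set, placed by its mean log2 signal with eGFP and by its log2 difference for the 3 MYB constructs together minus eGFP; filled points were called with the pool as a block. The Sox8 points form a group of their own at -1.18 to -2.06, the 20 Sox6 points all lie under 0, and the points of Sox10, Sox5 and Sox13 lie on both sides of 0.

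All 20 probe sets of Sox6 were lower with the constructs together, at -0.93 to -0.08, and 11 of them were lower in all 9 pool comparisons of a MYB construct with eGFP. For this too the share of all probe sets was not counted. Probe sets 17495342 (-0.74) and 17495343 (-0.64) were called with the block (limma adjusted p = 0.038 and 0.034) and not without it (0.13 and 0.15). All 6 probe sets of Sox9 were lower together, by at most 0.32 at the brightest, 17257948. Of Sox5 19 of 25 were lower, of Sox13 9 of 12 and of Sox10 4 of 6, and none of these was called.

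In the suppression set none of the 6 genes was called between Qk and LacZ suppression. Sox8 was 6.56, 7.67, 6.85, 7.84 and 6.76 on the 5 arrays with Qk suppressed and 7.41, 6.77 and 6.21 on the 3 with LacZ suppressed. The groups overlapped, and the difference was 0.34 with an interval of -0.39 to 1.07 (limma adjusted p = 1.00). The differences of the others were 0.14 for Sox9, -0.02 for Sox10, -0.14 for Sox5, -0.08 for Sox6 and 0.02 for Sox13.

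Of all genes, Gm5067 alone was called in this comparison (0.00432%), and at an unadjusted p under 0.05 in limma there were 946 genes and 0 of the 6. Qk signal itself differed by -0.22 (95% interval -0.55 to 0.10; limma adjusted p = 1.00), so the suppressed gene was not seen to fall beyond the spread of the arrays.

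The arrays with the same second number in their label were alike in several of these genes. Sox8 was 7.41 to 7.84 on the 3 arrays numbered 1, 6.56 to 6.77 on the 2 numbered 2 and 6.21 to 6.85 on the 3 numbered 3. Sox5 was 5.24 to 5.33, 5.73 to 6.21 and 5.50 to 5.62 in the same order. In Sox5 the 3 numbers did not overlap, while Qk and LacZ arrays did, and in Sox13 the arrays numbered 2, at 6.31 to 6.34, lay under the others at 6.48 to 6.78. In Sox8, Sox9, Sox10, Sox6 and Sox13 at least some of the numbers overlapped. The share of all genes with such patterns was not counted. With the number as a block the 6 genes were still not called, with adjusted p of 0.70 for Sox8 and 0.79 to 0.98 for the rest (limma).

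**Figure D4:**
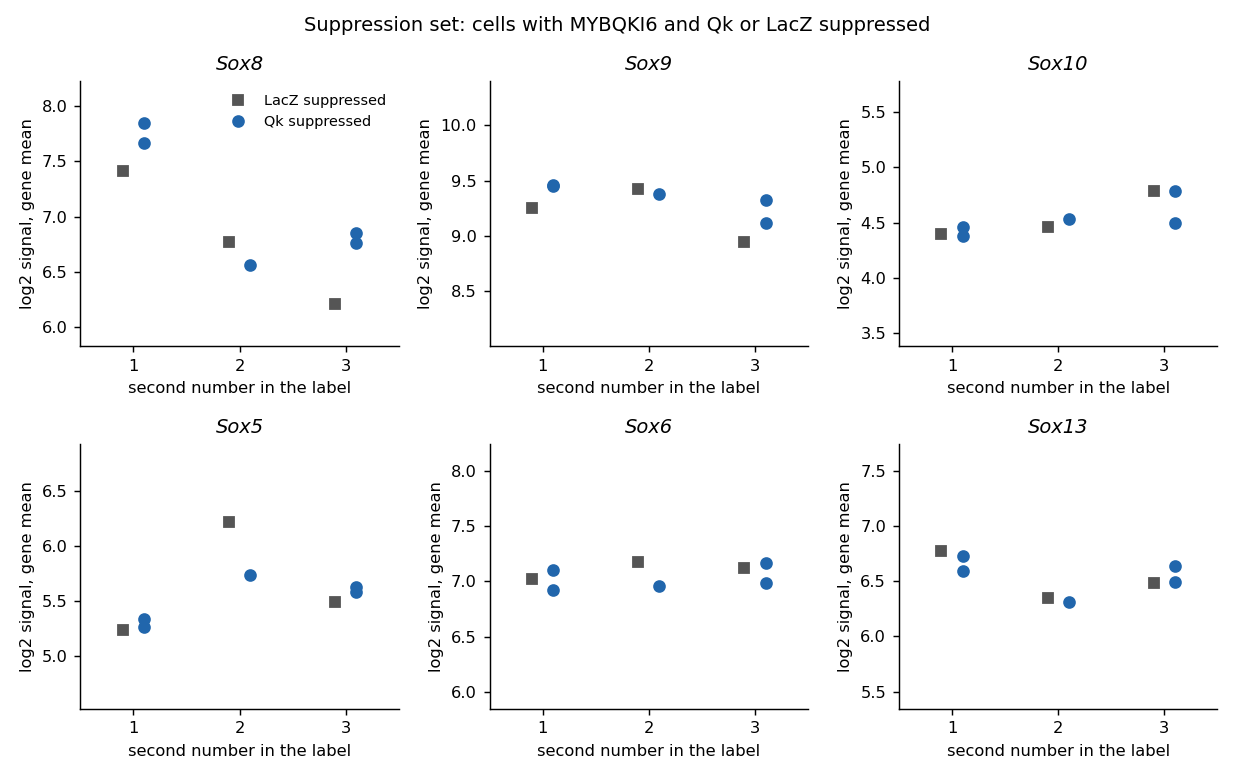
Each panel shows the log2 signal (gene mean over probe sets) of 1 gene on the 8 suppression arrays against the second number in the label, with squares for LacZ suppressed and circles for Qk suppressed, all cells carrying MYBQKI6. Sox8 is highest on the arrays numbered 1, at 7.41 to 7.84, whichever gene was suppressed.

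Elsewhere in the family no gene was called. Of 13 other Sox genes 0 were called with the 3 MYB constructs against eGFP (limma, 0 with the pool block, and 0 at an unadjusted p under 0.05), and none had a difference beyond 0.28 in size. Their median was 0.02. Over all genes, 2269 of 23152 had an unadjusted p under 0.05 in limma in this comparison. The stem cell factor Sox2 differed by 0.02 and the neuronal factors Sox4 and Sox11 by 0.28 and -0.08.

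Of 20 partners of SoxE and SoxD factors in glia, 19 were measured. Olig2, which specifies oligodendrocyte precursors together with SoxE factors, fell by 0.62 (limma adjusted p = 0.021), and Nfix, of the nuclear factor I family that works with Sox9, rose by 0.59 (limma adjusted p = 0.016). The other 17 were not called. Over all genes 2.00% were called in this comparison, and 7.07% with the pool block. With the pool block 2 were lower and 2 higher, and Olig1 stood at -1.11 (limma adjusted p = 0.074, and 0.0023 with the block). Against QKItr, Nfix and the histone deacetylase Hdac1 rose, by 0.49 and 0.53 (limma adjusted p = 0.032 and 0.043), and Olig2 at -0.34 was not called. The list median was -0.02.

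Described glial targets of SoxE factors went both ways. Of all genes 2.00% were called against eGFP, 7.07% with the pool block, and 2.95% against QKItr without the block. Of 25, 22 were measured; against eGFP 2 fell and 1 rose, with a median of 0.06. With the pool block 3 were lower and 2 higher, adding S100b at -0.82 and the growth factor receptor Pdgfra at 0.67 (limma adjusted p = 0.0091 and 0.031 with the block, 0.060 and 0.30 without). Gjc3, a gap junction protein of glia, fell by 1.55 and Cspg4, the NG2 proteoglycan of precursors, by 1.30 (limma adjusted p = 0.0064 and 0.0080), while the myelin enzyme Cnp rose by 0.87 (limma adjusted p = 0.0058). Against QKItr the same 3 were called and 2 more fell, the glial calcium-binding protein S100b by 0.83 and Mmd2 by 0.60 (limma adjusted p = 0.046 and 0.031).

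Of the 14 cartilage targets of Sox9, Sox5 and Sox6, genes such as Col2a1 and Acan, 0 were called (limma, 0 with the pool block, and 1 at an unadjusted p under 0.05), with a median of -0.04. At that unadjusted p there were 2269 of all 23152 genes.

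**Figure D5:**
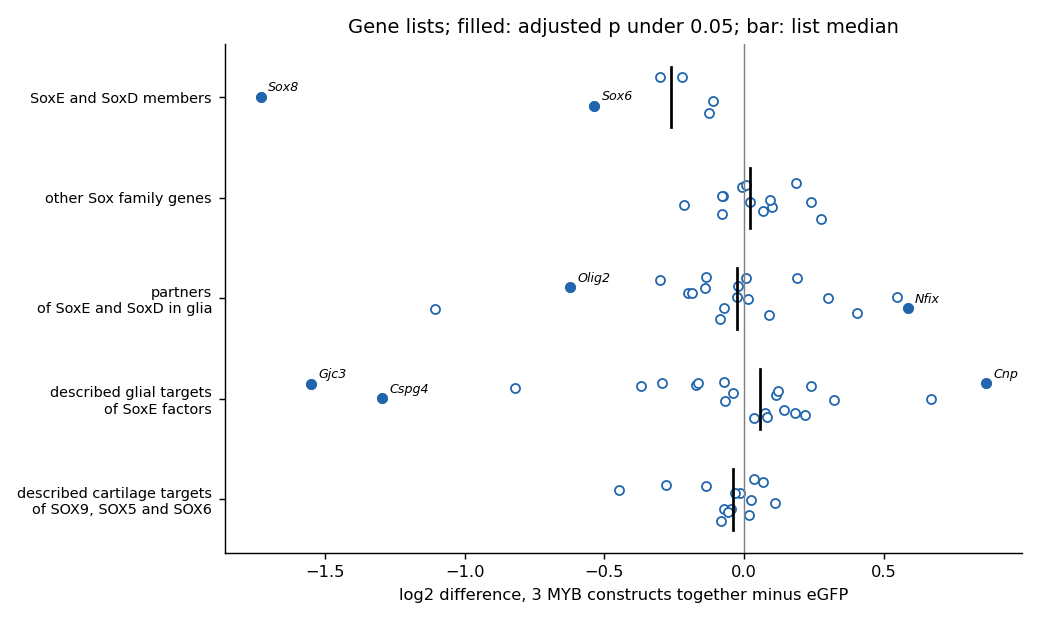
Each point is a gene of 1 of 5 lists, placed by its log2 difference for the 3 MYB constructs together minus eGFP; filled and named points were called (limma adjusted p under 0.05) and the vertical bar is the list median. Only Sox8 and Sox6 are called among the 6 SoxE and SoxD genes and 0 among the 13 other Sox genes, and the glial targets hold called genes on both sides of 0.

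Some markers of astrocytes and of oligodendrocyte precursors fell with Sox8 in the same arrays, and their part in its change was not tested. With the 3 MYB constructs against eGFP, 8 of 12 astrocyte and 9 of 14 precursor markers had a negative difference, where 51.8% of all genes did. In this comparison 2.00% of all genes were called and 7.07% with the pool block. An unadjusted p under 0.05 in limma was found for 2269 of 23152 genes. Of 12 astrocyte markers 2 fell against eGFP, Gfap by 1.26 and Hepacam by 1.34 (limma adjusted p = 0.014 and 0.016), 6 with the pool block. The mean log2 signal of the 12 was 7.22 to 7.32 with eGFP and 7.28 to 7.45 with QKItr, against 6.36 to 7.05 with MYBtr, 6.45 to 7.06 with MYBQKI5 and 6.54 to 7.15 with MYBQKI6. Of 14 precursor markers 2 fell (Cspg4 and Olig2) and the block gave 5 lower and 2 higher. Pdgfra, given above among the SoxE targets, is also on this list and was among the higher ones. The mean of the 14 precursor markers was 6.64 to 6.80 with eGFP, 6.78 to 6.80 with QKItr and 6.19 to 6.54 over the MYB groups. Of 14 neural stem cell markers Nes fell by 1.04 and Vim rose by 0.46 (limma adjusted p = 0.017 and 0.048); the block gave 2 lower and 2 higher, with Hmga2 at 0.57 (limma adjusted p = 0.030, and 0.080 without the block). Against QKItr Hmga2 was called without the block, at 0.91 (limma adjusted p = 0.0055). The mean of the 14 was 7.94 to 8.02 with eGFP and 7.71 to 8.07 with MYBtr. Of 12 neuron, 11 microglia and 11 vascular markers 0 were called (limma; the block gave 1, 1 and 0, and an unadjusted p under 0.05 gave 1, 1 and 0), of the 11 myelinating oligodendrocyte markers measured Cnp alone was, and 0 of the 9 neural crest markers measured were (3 at an unadjusted p under 0.05). The block gave 2 lower and 1 higher for the neural crest list, among them the cadherin Cdh19 at -0.39 and the myelin protein Pmp22 at 0.97 (limma adjusted p = 0.049 and 0.0051 with the block). Against QKItr both were called without the block, Cdh19 at -0.66 and Pmp22 at 0.98 (limma adjusted p = 0.0098 and 0.039). No marker is at 0 on the log2 scale, but that does not show a marker to be expressed. The 25th percentile of genes lay at 3.68 to 3.90 on the pool arrays.

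Likeness was measured as Pearson's r over the 15 pool columns after pool means were removed, as a description. Left out of the ranking were the 6 members, genes named Gm and a number, and names ending in Rik. Names with prefixes such as LOC, Mir, Snor, Rn, AK or BC were left out too. The columns share the construct groups and the pools, so a gene that follows the constructs correlates with any other that does. Of the genes ranked, the 3 most like Sox8 were Cyp2j9 (r = 0.99), a cytochrome P450, Ttyh1 (0.99), a membrane protein of neural cells, and Epdr1 (0.99). Their differences with the MYB constructs together were -1.64, -1.68 and -0.80, each called (limma adjusted p = 0.0022, 0.0040 and 0.0067). The genes most like Sox6 were Adamts9 (0.96), Lrrc42 (0.96) and Spag9 (0.96), and none of these was called. Those most like Sox9 were Sult1c2 (0.94), Defb29 (0.92) and Sun2 (0.91), for Sox10 Dydc1 (0.94), Olfr1297 (0.92) and Magix (0.91), and for Sox5 Avl9, Kctd21 and Appl1 (0.94 each). Sox13 was most like 2610044O15Rik8 (0.89), which the name rule did not catch, Nek9 (0.87) and Abcd4 (0.86). Between the 6 genes, Sox8 and Sox6 were the most alike (r = 0.91), and the other 14 pairs had r from -0.15 to 0.66.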

How the data were processed

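Total RNA was biotin-labelled and read on Affymetrix arrays, per the labels. The authors deposited log2 values, judged so because they run from 0.22 to 14.6; the normalization is not given in the sources used here. Of 269751 probe sets, 233753 named 1 gene symbol, and these were averaged for each gene. The symbols came from GEO's platform annotation, updated through RefSeq (20875 current, 2189 updated, 88 not matched). No filter on dim signal was applied.

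Both eGFP arrays of each pool were averaged. A limma fit (version 3.58.1, R 4.3.3; lmFit, contrasts.fit, eBayes) took the 15 resulting columns, with data.table, version 1.17.8, and the 8 suppression arrays had a fit of their own. A gene was called at a Benjamini-Hochberg adjusted p under 0.05 over the 23152 genes. The script was tested on simulated data. Probe sets were tested the same way. No depth exists for arrays, and their number limits the precision. Plots used matplotlib 3.10.9 and Python 3.11.15.

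Labels give pool numbers in the pool set and second numbers in the suppression set. The Qk arrays also carry a first number, which no fit used. Samples with the same number deviated together: 30 pool pairs had correlations of 0.31 to 0.72 (median 0.53) against a median of -0.23 over 60 other pairs, and 5 suppression pairs had 0.22 to 0.57 against a median of -0.21 over 10 others. Fits that block on the number are therefore printed beside results of the members and lists where they change a call. No 2 of the 26 arrays held identical values, and all value columns were mapped.

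Named genes were the 6 members, list genes called in at least 1 comparison (up to 6 per list and comparison), 3 genes most like each member, and for each member the called, brightest, dimmest and 3 lowest-p probe sets. Single other genes were named after their values were seen. The members and lists were chosen with earlier results of these data known. Alternatives were the replicate block, other summaries of probe sets, dim filters, quantile normalization and median centring, a variance trend, other uses of the eGFP arrays, the groups of a comparison alone, and leaving out each sample.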

Additional observations from a re-analysis of the deposited data

Results flagged for a closer look

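Sox6 had an eGFP array apart from the others: repeat R1 of pool 1 read 7.98, where the other 5 eGFP arrays read 8.26 to 8.40. Its gap to the nearest array was 0.659 of the whole range of the 6 arrays, above Dixon's critical value for 6. That value takes the arrays as independent, while these are 2 repeats of each of 3 pools, and the nearest array was the other repeat of pool 1. Chance flags about 1 in 20 groups, and this was 1 of 12 groups tested. With repeat R1 alone for eGFP the Sox6 difference of the 3 MYB constructs was -0.48 and was not called.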

How the results depend on the processing

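No called direction reversed under any alternative. The number of the 6 Sox genes called moved as follows. With the pool as a replicate block it was 3 with MYBtr, 2 with MYBQKI5, 2 with MYBQKI6 and 3 against QKItr, and the called probe sets rose from 5 to 10. With MYBtr it was 0 with the brightest probe set alone and 0 with only the groups of the comparison, and 3 with the 6 eGFP arrays as samples. With MYBQKI5 it was 1 with only the groups of the comparison and 1 with the 6 eGFP arrays. With MYBQKI6 it was 1 with quantile normalization, 1 with median centring and 2 with the 6 eGFP arrays. For the 3 constructs against eGFP it was 1 with the median of probe sets, the brightest probe set, eGFP repeat R1 alone or only the groups compared. Against QKItr it was 2 without dim probe sets, without dim genes, with a variance trend or with the 6 eGFP arrays. Leaving out 1 sample, in fits without the block, gave 0 to 2 with MYBtr, 0 to 1 with MYBQKI6, 0 to 2 for the 3 constructs and 1 to 2 against QKItr. Over all genes, the count called ranged from 37 to 1383 with MYBtr, 18 to 609 with MYBQKI5, 27 to 1017 with MYBQKI6, 197 to 1638 together and 277 to 2401 against QKItr, and the cause was not tested. Sox8 against QKItr was called in every alternative run.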

Other observations

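Genes beside Sox8 in the RefSeq order were measured too, chosen after their values were seen. Cerox1, a noncoding gene next to Sox8, stood at -1.13 with the 3 MYB constructs against eGFP (limma adjusted p = 0.051, and 0.00046 with the pool block), at -1.17 with MYBtr, -1.12 with MYBQKI5 and -1.08 with MYBQKI6. On the other side the nearest measured gene, Sstr5, stood at -0.14 and was not called, and the next, Tekt4, a ciliary gene, rose by 0.70 (limma adjusted p = 0.032). Lmf1, beyond Cerox1, stood at -0.19 and was not called.

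Beside Sox10, Polr2f, an RNA polymerase subunit, fell by 0.51 (limma adjusted p = 0.031), while Sox10 itself was not called. Beside Sox9, 2610035D17Rik stood at -0.67 (limma adjusted p = 0.35, and 0.00051 with the block). Kcnj2, on the other side of Sox9, stood at 0.57 (limma adjusted p = 0.38, and 0.028 with the block). BC006965 at -0.175 and Gm11681 at 0.07, also beside Sox9, were called in neither fit. Sox5 and Sox6 are overlapped by other listed genes, of which Sox5os3 was measured, at -0.10; the strand that the array reads was not given in the sources used here.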
